A study of Homo sapiens with 52 samples.

Results

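Contacts of human chromosome 5 with the nuclear lamina were described in single KBM7 cells from all 100 kb bins of the chromosome that hold a value in every cell. These were 1766 of the chromosome's 1810 listed bins and 1766 of 26584 measured bins in all, placed on the genome build hg19. KBM7, a cell line established from human chronic myeloid leukaemia, was used, and all cells carried a fusion of the bacterial methyltransferase Dam to Lamin B1. They came from clone 14, with ploidy 2N, and formed 1 group without an untreated or Dam-only control. Methylation had been induced with 0.5 nM Shield1 for 15 h, and single cells were sorted from the smallest 2% of those positive for both Fucci cell cycle reporters. The labels name 52 cells, and the 51 with a column were used (cell 47 was not analysed here). Since no separate cultures are named and the line is 1 clone, the cells count as 1 sample. SDs describe the spread between cells, and differences carry no test.

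The nuclear lamina is a meshwork of lamin proteins under the inner nuclear membrane, and chromatin that touches it forms large lamina-associated domains. Such domains are typically poor in genes and weakly transcribed, and they alternate along a chromosome with stretches that stay inside the nucleus. In DamID, a Dam fusion to a lamina protein methylates adenines in DNA that comes close, and the methylated fragments are amplified and sequenced. Chromosome 5 has a short arm and a much longer long arm, and it carries LMNB1, the gene for Lamin B1 itself. RefSeq (assembly GRCh38.p14) lists 903 protein-coding genes on it, 4.99 per Mb of listed bins, against 5.38 on chromosome 3, 4.02 on chromosome 4, 6.13 on chromosome 6 and 24.5 on chromosome 19. Genes were not assigned to bins, because that annotation uses another build.

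Each deposited value is a ratio of observed to expected signal (OE), and a bin was called in contact at an OE of at least 1. The ratios resolved into whole reads per bin and cell. Cells held 50978 to 316463 reads, with a median of 142540, and 2620 to 27015 of these lay on chromosome 5. The expected number of a bin, the whole number by which its reads were divided, had a median of 317 on chromosome 5 and 316 over all bins. At an OE of 1, a median bin of chromosome 5 held 2.13 reads in the shallowest cell and 13.3 in the deepest, so single calls in shallow cells rest on few reads. PCR reads carry no molecular identifiers, and intervals cover counting error only.

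Chromosome 5 touched the lamina more than the rest of the genome in most cells. Contact covered 36.9% ± 5.73 of its bins and 31.1% ± 3.58 of the bins of all other chromosomes (SD, n = 51 cells). The difference was 5.82 percentage points ± 4.92, and it was positive in 48 cells and negative in cells 33, 42 and 45. On average the excess lay on the short arm, with contact in 53.1% ± 7.31 of its bins. The long arm, with 31.2% ± 6.26, was near the mean of the other chromosomes. Over the cells the chromosome 5 share was lowest at 10.2% in cell 42 (95% Wilson interval 8.92% to 11.8%), had a median of 36.9% and was highest at 52.1% in cell 26 (49.8% to 54.4%). The next lowest cells were cell 45 with 28.4% and cell 51 with 29.6%, and the next highest were cell 49 with 47.6% and cell 12 with 44.8%. Cell 42 therefore stood apart from its nearest neighbour, cell 45. Between the tenth and ninetieth percentile of cells the share ran from 32.5% to 41.7%. Neighbouring bins are not independent, so these intervals are too narrow.

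Relative to its neighbours in size, chromosome 5 lay below chromosome 4 and near chromosomes 3 and 6. Chromosome 5 minus chromosome 4 was -6.65 points ± 6.51, and chromosome 5 was lower in 47 of 51 cells. The differences from chromosome 3 (-0.30 points ± 6.89) and chromosome 6 (0.87 points ± 5.75) were smaller than the spread between cells, with chromosome 5 higher in 25 and 32 cells. Contacted bins had a median OE of 2.47 ± 0.349 on chromosome 5 and 2.47 ± 0.214 on other chromosomes (SD, n = 51 each), with chromosome 5 higher in 26 cells and lower in 25. Over the 51 cells, the chromosome 5 share went with the share of the other chromosomes (Pearson's r = 0.523, Spearman's rho = 0.534) and less with reads (r = 0.348, rho = 0.278). Both axes of these relations come from the same libraries, so they describe these cells only.

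**Figure D1:**
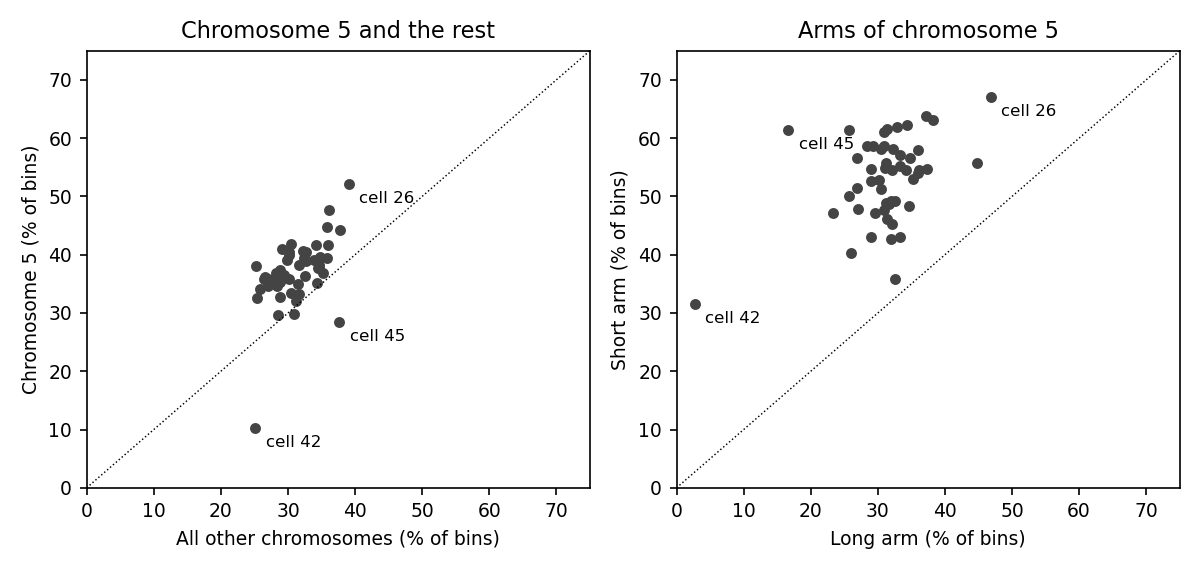
Left, each point is a cell with the share of contacted bins on chromosome 5 (y axis, percent) against all other chromosomes (x axis, percent); right, the short arm (y axis, percent) against the long arm (x axis, percent). Dotted lines mark equal shares: 48 of 51 cells lie above the line on the left, all 51 on the right, and cell 42 stands apart at 10.2% for the chromosome and 2.69% for its long arm.

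The arms of the chromosome differed far more than the chromosome differed from the genome. The short arm, 464 measured bins from 1 to 46400000, had contact in 53.1% ± 7.31 of bins, and the long arm, 1301 bins from 49400001 to 180800000, in 31.2% ± 6.26 (SD, n = 51 each). The short arm was higher in all 51 cells, by 21.9 points ± 7.20, from 3.26 points in cell 31 to 44.7 points in cell 45. Short arm shares ran from 31.5% in cell 42 through a median of 54.5% to 67.0% in cell 26, and long arm shares from 2.69% in cell 42 through 31.4% to 46.8% in cell 26. The mean OE told the same order, with 1.49 ± 0.291 on the short arm and 0.939 ± 0.209 on the long arm. Arms were separated by the unmeasured stretch from 46400001 to 49400000, which holds the centromere in hg19. A single measured bin inside it, with no read in any cell, was left out of both arms.

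The compared chromosomes had other arm differences, with arms split in the same way. On chromosome 3 the short arm was 4.81 points ± 4.89 above the long arm and higher in 43 cells. Chromosome 4 showed -1.89 points ± 5.43, with the short arm higher in 16 cells. On chromosome 6 the order was turned, with 22.1% on the short arm and 43.5% on the long arm, and the short arm was higher in 0 of 51 cells. At an OE of at least 2, which lowers all shares, the arms of chromosome 5 differed by 13.5 points ± 8.78.

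Contact frequency, the share of the 51 cells in which a bin was in contact, placed most bins of chromosome 5 at either extreme. Contact in 80% of cells or more was found for 463 bins (26.2%), against 20.9% of all measured bins. No cell had contact in 520 bins (29.4%), against 38.7% of all measured bins. Among them 66 were without a read throughout, and in the remaining 454 a result of 0 of 51 cells leaves room for contact in up to 5.88% of cells (limit of 3 counts). A single cell had contact in 109 bins (6.17%), against 5.06% of all measured bins. Intermediate frequencies, above 20% and under 80%, were found for 396 bins (22.4%), against 22.1% of all measured bins, a share near the background. Chromosomes 3, 4 and 6 had 27.4%, 32.0% and 26.1% of bins in this most frequent class.

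The classes divided unevenly over the arms. On the short arm 191 of 464 bins (41.2%) belonged to the most frequent class, 80% of cells or more, and 71 (15.3%) had contact in no cell. On the long arm the counts were 272 of 1301 bins (20.9%) and 448 (34.4%). Over all measured bins these classes held 20.9% and 38.7%, so the long arm was near the background and the short arm departed from it. The mean OE was 2.74 ± 0.530 over the 463 most frequent bins, 1.33 ± 0.287 over bins of intermediate frequency and 0.129 ± 0.0586 over bins contacted in at most 20% (SD, n = 51 cells). That last class held 907 bins (51.4%), against 57.1% of all measured bins. Frequency and OE come from the same values and are not separate measures. Contacts in rarely contacted bins had a median OE of 1.41 ± 0.153, against 2.81 ± 0.454 for contacts in the most frequent class. This difference, too, comes from the values that set the classes.

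**Figure D2:**
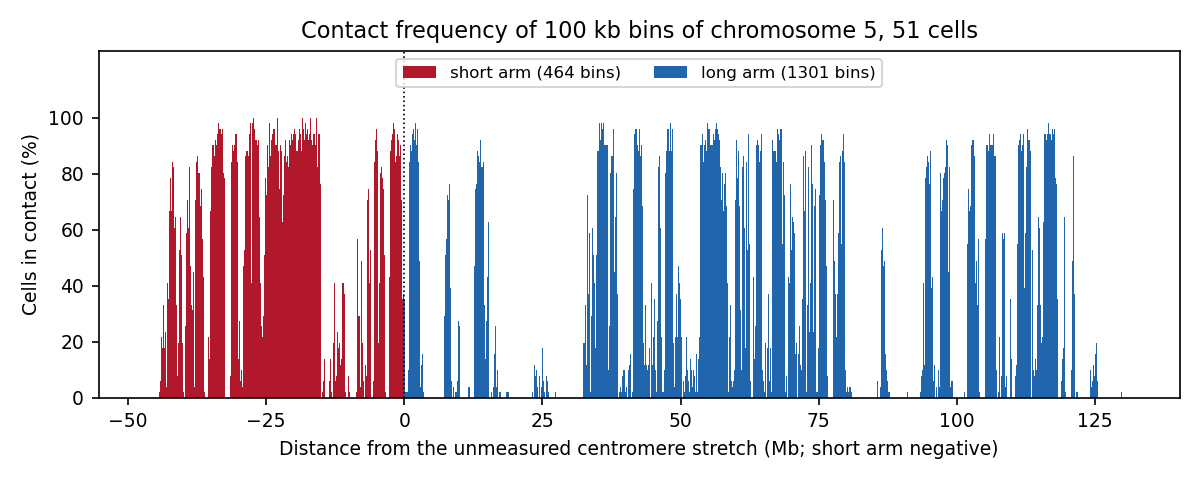
Contact frequency (y axis, percent of 51 cells with an OE of at least 1) of each measured 100 kb bin of chromosome 5, by distance from the unmeasured centromere stretch (x axis, Mb, short arm negative). Frequent contact fills a broad block of the short arm, while the long arm alternates between blocks of frequent contact and long stretches near 0.

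Windows of 5 Mb showed where on each arm the contacts lay. The window from 25000001 to 30000000 was the highest of the 37, with contact in 92.4% ± 8.85 of its bins and no cell below 66.0%. Next came the windows from 20000001 (78.0% ± 14.7), 15000001 (72.8% ± 11.4) and 105000001 (64.5% ± 16.7). The window from 115000001 followed with 59.3% ± 16.4. Thus the top 3 windows were adjacent on the short arm, and the other pair lay on the long arm. The lowest windows were those from 175000001 (0.0392% ± 0.280), 180000001 (0.245% ± 1.75, over 8 bins) and 130000001 (0.392% ± 1.33), all on the long arm. Cells differed most in the window from 5000001 to 10000000, where the mean was 47.3% ± 18.3 and single cells ran from 6.00% in cell 38 through a median of 52.0% to 78.0% in cell 26.

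Bins contacted in every cell were few, and on the long arm their count depended on cells 42 and 45. Leaving out cells can only keep or raise such a count. Over all 51 cells 9 bins (0.51%) were contacted in every cell, against 0.824% of all measured bins, and all 9 lay on the short arm, between 12500001 and 30600000. The strongest, from 29400001 to 29500000, had a mean OE of 3.74 and ran from 1.53 to 7.99 over the cells. The weakest call among the 9 was an OE of 1.01, in the bin from 22800001 to 22900000. Without cell 42, 15 bins (0.849%) were contacted in every remaining cell, against 0.918% of all measured bins. Without cells 42 and 45 the count was 22 (1.25%), against 0.944% of all measured bins. Of these 22 bins, 9 lay on the short arm and 13 on the long arm. The count over all measured bins was 219 with all cells and 251 without these cells. On chromosomes 3, 4 and 6, 34 (1.74%), 36 (1.91%) and 26 bins (1.55%) were contacted in all 51 cells. Without cells 42 and 45 their shares were 1.79%, 1.91% and 1.73%.

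The most constant regions were taken as the 5 longest of 89 runs whose bins all had contact in 90% of cells or more. Bins of this class numbered 298 (16.9%), against 12.8% of all measured bins. The longest covered 2.1 Mb of the short arm from 27900001 to 30000000, with contact in 95.1% ± 6.83 of its bins and a mean OE of 2.77 ± 0.817 (SD, n = 51). No cell fell below 71.4% there, and 26 cells touched the lamina over its whole length. On the long arm the run from 165100001 to 167100000 had 94.9% ± 14.9 and a higher mean OE of 3.22 ± 0.993. It was contacted over its whole length in 34 cells, and cell 42 alone had no contact in it. The short arm runs from 22200001 to 23600000 (94.5% ± 11.1) and from 12100001 to 13400000 (94.0% ± 14.5) had no cell without contact, with lowest shares of 42.9% in cell 31 and 30.8% in cell 42. In the long arm run from 116800001 to 117700000, 41 cells were in contact over the whole 0.9 Mb and 2 cells, among them cell 42, had no contact at all. With the bound lowered to 80% of cells, the longest run became a block of 6.0 Mb on the short arm, from 25200001 to 31200000, with 93.1% ± 7.35 of bins in contact.

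Runs of intermediate frequency were mostly short, with a median of 2 bins over 159 runs. The longest, on the short arm from 20200001 to 21500000, lay beside often contacted regions and had 49.6% ± 27.7 of its bins in contact, from 0% in cell 42 through a median of 46.2% to 100% (SD, n = 51). Of the cells, 7 had contact in at most 20% of it, 8 in at least 80% and only 2 over all of it. The long arm run from 56600001 to 57800000 had 59.2% ± 31.5, with 5 cells at no contact and 7 at full contact. From 98400001 to 99600000 contact reached 33.7% ± 32.0, and 24 cells had contact in at most 20% of the bins. The run from 118900001 to 120100000 had 57.8% ± 34.9, with 12 cells at no more than 20% and 21 cells at no less than 80%. From 126900001 to 127800000 the mean was 48.6% ± 33.3, with 13 and 10 cells in these classes. In these 5 runs, 38 to 48 cells had partial contact, meaning a share of called bins other than 0% or 100%. Counting error in single calls can also give such mixed shares. Whether these cells were attached over only part of a run was not tested.

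**Figure D3:**
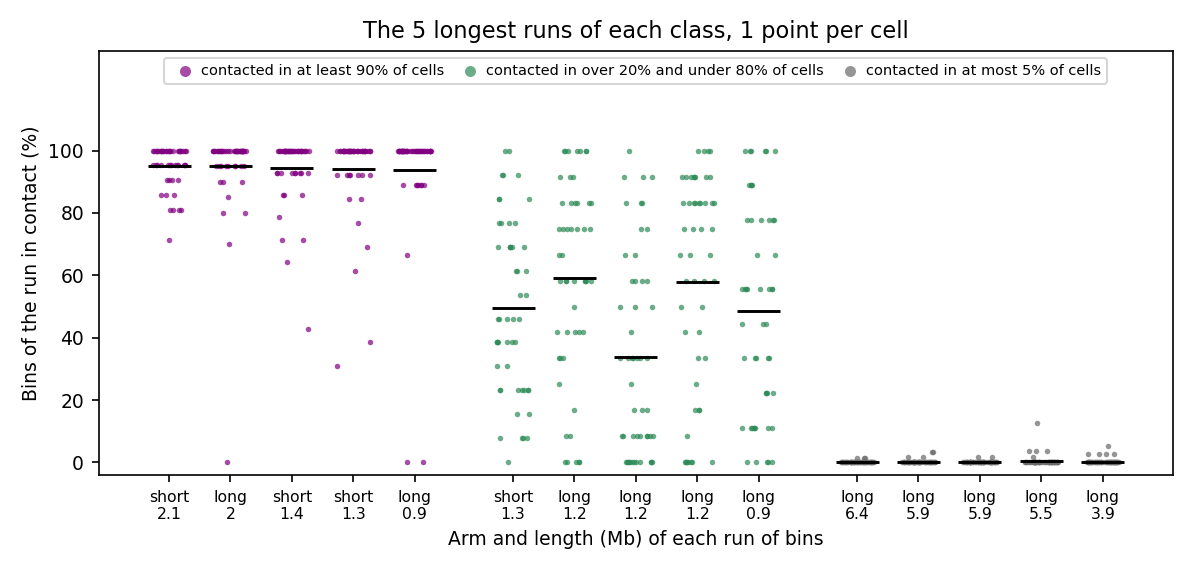
Share of bins in contact (y axis, percent) in each of 51 cells (points) for the 5 longest runs in each frequency class (90% of cells or more, over 20% and under 80%, 5% or less), each labelled with its arm and length in Mb on the x axis, longest first. Black lines are means over cells. Often contacted runs have means near 95% and medians of 100%. Intermediate runs spread over the whole range from 0% to 100%, and rarely contacted runs stay near 0%.

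Long stretches of the long arm were almost free of contact. Bins contacted in at most 5% of cells numbered 683 (38.7%), against 46.7% of all measured bins, and 581 of them lay on the long arm. They made up 44.7% of the long arm's bins, near the share of all measured bins. On the short arm the class held 21.8% of bins. The longest run covered 6.4 Mb from 75400001 to 81800000, with contact in 0.0919% ± 0.371 of its bins, and 48 of 51 cells had none (SD, n = 51). Its 64 bins held a median of 4 reads per cell in all, and 8 of them held no read in any cell. The runs from 136900001 to 142800000 (0.199% ± 0.731) and from 174900001 to 180800000 (0.0665% ± 0.332) each covered 5.9 Mb. From 129400001 to 134900000 contact reached 0.499% ± 1.96, with a highest value of 12.7% in a single cell, and from 52700001 to 56600000 it reached 0.302% ± 0.979. All 5 longest runs of this class lay on the long arm, which holds 1301 of the chromosome's 1766 measured bins. Their median expected numbers of 279 to 323.5 leave out the bins with no read, for which no expected number could be recovered, and the chromosome's median was 317.

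The ends of the chromosome were unlike each other. The outermost 5 Mb of the short arm were contacted in 24.8% ± 12.0 of 50 bins, and the outermost 5 Mb of the long arm in 0.0784% ± 0.392 of 50 bins (SD, n = 51). The short arm end was higher in 50 cells, and in cell 21 both were at 0%. Contact at the short arm end ran up to 50.0% in cell 50, while at the long arm end 49 cells had none. Both ends together had 12.5% ± 6.00, against 38.4% ± 5.96 for the other bins, and were lower in all 51 cells. With ends of 2 Mb the difference was -37.7 points, against -25.9 points with 5 Mb.

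Beside the centromere the arms differed as well. Bins within 5 Mb of the unmeasured stretch were contacted in 62.9% ± 9.66 on the short arm side and in 34.8% ± 7.62 on the long arm side, and the short arm side was higher in all 51 cells by 28.1 points ± 9.77 (SD, n = 51). Both flanks together were contacted in 48.8% ± 7.20, against 36.2% ± 5.83 for the rest of the chromosome, and were higher in 49 cells. This direction depended on the width. It came to 28.8 points for flanks 2 Mb wide and turned to -2.05 points ± 5.02 for flanks 10 Mb wide.

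Borders between contacted and uncontacted stretches were sharp in places. Over 1746 points with 3 measured bins on each side, the median step in contact frequency was 5.23 points, and 112 points had a step of at least 50. No count for other chromosomes is given here, so these values do not compare chromosome 5 with them. The largest lay at 40900001 on the short arm, where the 3 bins after the point had a frequency of 84.3% and the 3 bins before it 2.61%. At 98100001 on the long arm the frequency was 11.1% after the point and 91.5% before it, and at 31400001 on the short arm 0.654% after and 79.7% before. The long arm points at 90800001 (83.0% after, 4.58% before) and 102900001 (91.5% after, 15.7% before) were steps towards contact. Steps ran in the pooled direction in 47 to 50 of the 51 cells, in 0 cells the other way, and the sides were equal in the rest. These 5 points were picked for their large pooled steps in the same cells, so that count is a description only. The step at 31400001 closes the broad contacted block of the short arm.

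Cell 42 had no contact over most of the long arm. Its last contacted bin ended at 97600000, and none of the 832 measured bins from there to 180800000 was in contact. The stretch was defined by that last contact, so its lack of contact is a description. In the other 50 cells, contact in this stretch covered 34.8% ± 5.69 of bins, with a lowest value of 17.1% in cell 45, a median of 34.9% and a highest value of 49.0%. Of the bins contacted in at least 80% of cells, 190 lay in this stretch. Reads were not fully absent. Cell 42 held 245 reads in 178 of these bins, at most 4 in a bin, and its highest OE was 0.763. Scaled to the cell's total (RPM), that made 1816 RPM in cell 42, against 14058 RPM in cell 45, the lowest of the others, and a median of 36839 RPM. Bins of the stretch contacted in at most 5% of cells were also low in cell 42, with 74.1 RPM from 10 reads, against a median of 536 RPM and a lowest value of 115.9 RPM from 15 reads in the other cells. DamID reads come from methylated DNA only, so absence of contact and absence of the DNA cannot be told apart here.

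On the rest of the chromosome cell 42 was low too. From the first bin to 97600000 it had contact in 19.4% of bins, against 39.8% ± 4.64 in the other 50 cells, whose lowest value was 31.5%. Over the other chromosomes cell 42 had contact in 25.1% of bins, also the lowest of all cells, against a mean of 31.1% ± 3.58 (SD, n = 51). Its depth was ordinary, with 134913 reads, against a median of 142540 over all cells. Its contacted bins on chromosome 5 had a median OE of 1.69, the lowest of all cells, while its contacts on other chromosomes had the highest of all cells, 2.99. Over 612 pairs of a cell and 1 of the 12 chromosomes with the most bins, the deviation of cell 42 on chromosome 5 from the chromosome's usual difference, -20.7 points, was the lowest, and over all 1122 pairs it ranked 2 from the lowest. Its contact pattern on the chromosome correlated with those of other cells at a mean phi of 0.351, against a median of 0.641 over cells. Cell 45 had 0.555, and the lowest of the remaining cells had 0.526.

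Cell 45 had little contact on parts of the long arm. Its short arm share was 61.4% and its long arm share 16.7%, against means of 53.1% and 31.2%. In the window from 55000001 to 60000000 it had no contact, against 17.1% ± 10.0 in the other cells, of which 4 had none either. It also had none in the 3 windows from 65000001 to 80000000, where the other cells averaged 2.62%, 3.02% and 0.56% and 32, 33 and 41 of them had none. From 60000001 to 65000000 it had 8.00%, against 36.0% ± 12.1 in the other cells. From 100000001 to 105000000 it had 16.0%, against 44.4% ± 10.2, and from 105000001 to 110000000 it had 18.0%, against 65.4% ± 15.5. From 110000001 to 115000000 it had 4.00%, against 45.6% ± 13.7, and from 125000001 to 130000000 it had 6.00%, against 43.8% ± 14.3 (SD, n = 50 other cells). In these last 4 windows cell 42 alone was lower. Farther out its values were mixed. It had no contact from 140000001 to 145000000, against 24.4% ± 10.4 in the other cells, of which only cell 42 had none either. From 170000001 to 175000000 it also had none, against 10.4% ± 7.86, and 5 of the other cells had none there. From 165000001 to 170000000 it had 38.0%, against 50.6% ± 10.3, while from 150000001 to 155000000 it had 44.0%, against 37.6% ± 11.9. At 37.7%, its other chromosomes had more contact than the average cell's 31.1%.

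Gaps of this kind were smaller in other cells. Counted along the 463 bins contacted in at least 80% of cells, the longest unbroken stretch of missed bins was 190 bins in cell 42, 19 in cell 45 and 16 in cell 28, against a median of 4 bins per cell. In cell 28 the missed bins lay from 123000001 to 128700000 and in cell 27 (13 bins) from 128900001 to 147400000. Cell 43 missed 14 bins of the short arm from 23600001 to 25700000. These cells were chosen after their values were seen. The share of the 463 bins that a cell contacted was 34.1% in cell 42 and 74.3% in cell 45, with a median of 92.4% and a highest value of 99.8% in cell 37.

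**Figure D4:**
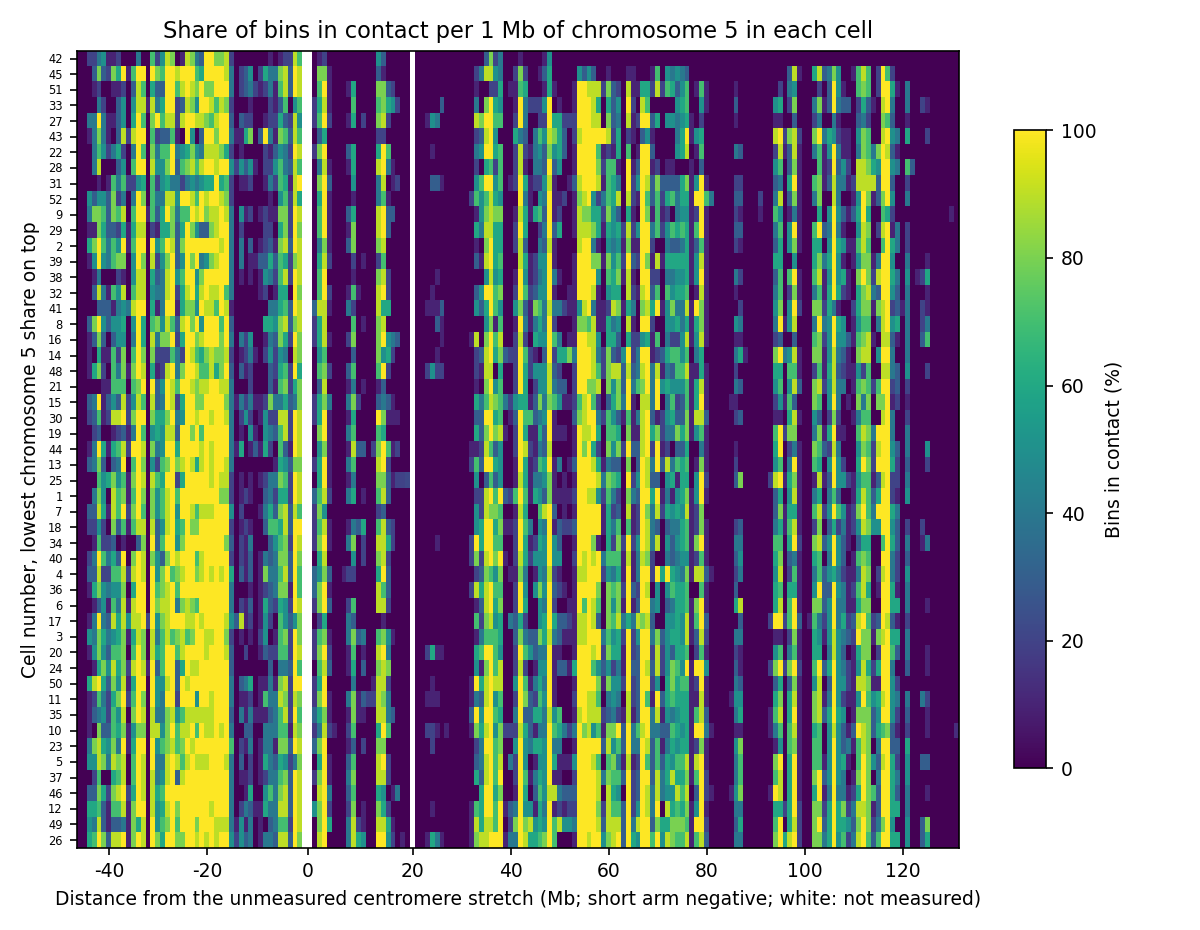
Share of bins in contact per 1 Mb of chromosome 5 (colour, percent) in each of 51 cells (rows, lowest chromosome 5 share on top), by distance from the unmeasured centromere stretch (x axis, Mb, short arm negative). White marks Mb with fewer than 5 measured bins; the top row, cell 42, is dark over the outer long arm, and the second, cell 45, is dark over several of its parts.

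Uninterrupted contact reached farther on the short arm. Runs of contacted bins on chromosome 5 had a mean length of 0.557 Mb ± 0.108, against 0.534 Mb ± 0.0793 on other chromosomes (SD of cell means, n = 51). They averaged 0.660 Mb ± 0.186 on the short arm and 0.513 Mb ± 0.108 on the long arm, and the short arm was higher in 42 cells and the long arm in 9. A cell's longest run had a median of 4.5 Mb and ran from 2.3 Mb in cell 42 to 13.8 Mb in cell 46. The longest run lay on the short arm in 35 cells and on the long arm in 15, and cell 46's covered the short arm block from 17600001 to 31400000. The next longest, 10.5 Mb in cell 36 from 20900001 and 10.3 Mb in cell 37 from 21100001, also ended at 31400000. Run lengths depended on depth, and the mean on chromosome 5 was 0.424 Mb once every cell was reduced to 50978 reads.

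Bins of intermediate frequency varied together from cell to cell, mainly with close neighbours. Over the 396 such bins, after the contact share of the cell's other chromosomes was subtracted, the mean Pearson's r of adjacent bins was 0.430 (n = 51 cells, 237 pairs of bins). It was 0.220 for bins about 1 Mb apart, 0.0825 about 10 Mb apart and 0.0417 about 50 Mb apart (5696 pairs). With bins of other chromosomes it was 0.0118. All pairs share the libraries and their depth, and a correlation of single bins is diluted by few reads. At 50 Mb the value rested on the cells that stood apart, since it was 0.0188 without cells 42 and 45, close to their value of 0.0103 with other chromosomes. Adjacent bins had 0.419 without these cells. Chromosomes 3, 4 and 6 had 0.272, 0.211 and 0.224 at 1 Mb, and 0.0392, 0.0199 and 0.0612 at 50 Mb.

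**Figure D5:**
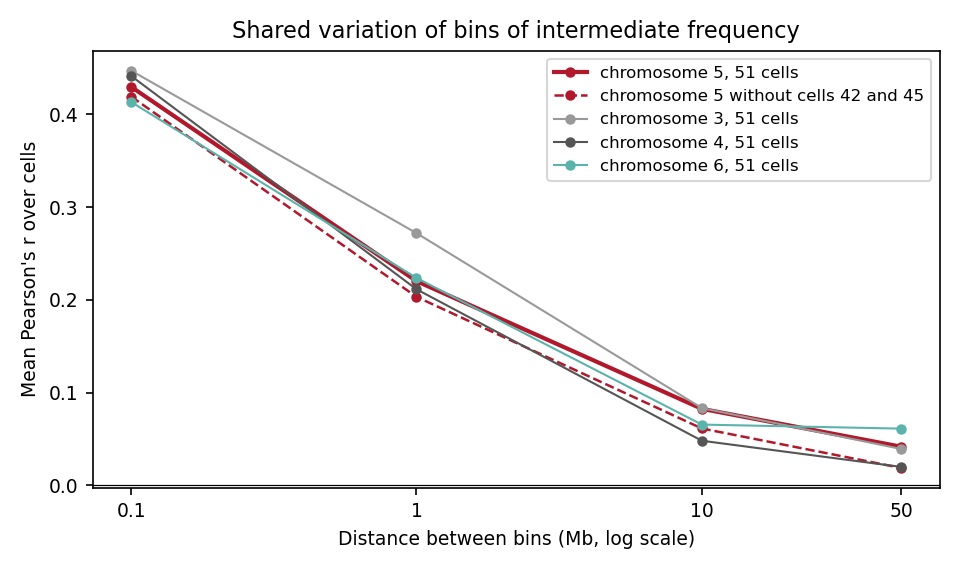
Mean Pearson's r over cells (y axis) between bins of intermediate contact frequency by their distance (x axis, Mb, log scale) on chromosome 5 with all 51 cells, on chromosome 5 without cells 42 and 45, and on chromosomes 3, 4 and 6. On chromosome 5 the mean is 0.430 for adjacent bins and 0.0417 at 50 Mb, and without the pair of cells the value at 50 Mb is 0.0188.

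The shares of the arms were only loosely related. Short and long arm shares correlated over the 51 cells at r = 0.445 and rho = 0.271. Without cell 42 r was 0.248, and without cells 42 and 45 r was 0.370 and rho 0.279. With the share of the cell's other chromosomes subtracted, r was 0.244 and rho 0.0890 over the 51 cells. Without cell 42 this r was 0.0447, and without cells 42 and 45 it was 0.0890. Between bins of the arms the mean r was 0.0221, and 0.0132 without cells 42 and 45. Among windows of 5 Mb with a mean share between 5% and 95%, the closest pair was that from 110000001 and 115000001, with r of 0.678, or 0.465 without these cells. The short arm windows from 15000001 and 25000001 had 0.579, or 0.607 without them. Distant pairs could depend on these cells, such as the windows from 105000001 and 165000001 with 0.566, or 0.174 without them. The lowest r of any such pair was -0.32, between the short arm window from 5000001 and the long arm window from 170000001. Closest and lowest pairs were picked as extremes among all pairs, so they describe these cells only.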

How the data were processed

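Single-cell DamID libraries of 51 KBM7 cells were read from the authors' deposited ratios of observed to expected signal (OE), 1 column per cell, in 100 kb bins. Cutadapt and Bowtie2 2.1.0 were used with hg19, per the submitters' processing notes. What the expected value was made from is not given in the sources used here. Whole reads and a whole expected number per bin were recovered from the ratios. Of the values above 0, 100% were whole to a tolerance of 0.02 reads, and the recovery, contact, run, correlation and thinning steps were tested on simulated data. Depth here means the recovered reads, 50978 to 316463 per cell. Contact was called at an OE of at least 1. Named regions were the 5 longest runs per frequency class, the 5 largest steps and the highest 5 and lowest 3 windows of 5 Mb. Named cells were those with the 3 highest and lowest shares or differences, and cells 42 and 46. The members, lists and rules were chosen with earlier results of these data known. With 1 group, no test was made. Python 3.11.15, NumPy 2.4.6 and SciPy 1.17.1 were used. Lists of 58 genes of the chromosome were not placed on bins, since no hg19 annotation was used here.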

Additional observations from a re-analysis of the deposited data

How the results depend on the processing

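Of 316 values under 16 settings, 296 stayed within the spread between cells, or within 1.5 times for shares of bins, SDs and correlations. Omitting both cells 42 and 45 was chosen after the data were seen. The small differences from chromosomes 3 and 6 changed sign, with ranges of -1.39 to 0.693 and -0.337 to 1.90 points. A contact threshold of 0.5 gave a chromosome 5 share of 45.3%, a mean run of 0.682 Mb and 0.853% in the rarely contacted regions. A threshold of 2 gave 23.6% and 0.332 Mb, 4.42% of bins in the class of 80% of cells or more, an arm difference of 13.5 points, and 75.6% and 25.6% in the often contacted and intermediate regions. A higher threshold can only lower shares, and the cause of the smaller arm difference was not tested. Thinned to 50978 reads, the mean run was 0.424 Mb. Ends of 2 Mb differed from other bins by -37.7 points, and flanks of 2 and 10 Mb by 28.8 and -2.05 points. With log2(OE + 0.1), correlations were 0.129 at 10 Mb and 0.0750 at 50 Mb, and without cells 42 and 45 the value at 50 Mb was 0.0188. The cause was not tested. Few reads per bin limit single calls in the shallowest cells. Differences between parts of the genome were taken within each cell. No comparison between groups was possible because the cells form 1 group.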
